A study of Mus musculus with 3 samples.

Results

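Ephrins and Eph receptors formed the subject: 10 genes were taken by name, namely the ligands Efna1, Efna5, Efnb1 and Efnb2 and the receptors Epha2, Epha4, Epha7, Ephb2, Ephb3 and Ephb4, of 24225 genes with a summed value. Granulosa cells, the hormone-producing cells of the ovarian follicle, were studied by mRNA sequencing in wild-type C57BL/6 females of postnatal day 21 to 28. All animals had received 4 IU of eCG, a gonadotropin that drives follicle growth. The first group (0 h) was taken before hCG, and the other two were taken 4 h and 12 h after 5 IU of hCG, the gonadotropin that triggers ovulation. RNA came from 3 mice per time, cells were freed by puncturing follicles, and each time is 1 library, so no spread between mice is known and no test was run. No sorting of the cells is described in the labels.

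Eph receptors are receptor tyrosine kinases that bind ephrins on the surface of a neighbouring cell. A ephrins are held in the membrane by a lipid anchor, B ephrins span it, and both sides of the contact can signal, the receptor's forward and the ligand's in reverse. EphA receptors mostly bind A ephrins and EphB receptors mostly bind B ephrins, with EphA4 accepting both. The family is known for cell repulsion, tissue boundaries and the sorting of arteries from veins, and female mice that lack Efna5 have been described as less fertile.

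Values are FPKM, fragment numbers corrected for transcript length and library depth, each with the lower and upper deposited bound summed over the isoforms of a gene. The bounds describe the estimate within 1 library. A gene is called higher or lower where its log2 fold of FPKM + 1 reached 1, a 2-fold difference, and its level reached 1 FPKM in either library. This is a rule of size, and the pseudocount of 1 understates folds of low genes. Depth, read from the steps between low values, was about 13400000, 11900000 and 11600000 fragments at 0, 4 and 12 h. Summed over all genes, FPKM came to 501561, 621365 and 472904 at those times, so calls of the listed genes, the signalling lists and the marker lists that changed after scaling to equal summed FPKM are given beside them. That rescaling moved the median log2 fold of all genes to -0.29 for 4 h over 0 h, against -0.01 on the deposited scale, and to 0.37 for 12 h over 4 h, against 0.01.

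A ligand and 3 receptors, Efnb2, Epha4, Epha7 and, at a lower level, Epha2, were highest in the 4 h library with bounds apart from those at both other times. Bounds of 4 h and 0 h were apart, in either direction, for 37.3% of all genes, and those of 12 h and 4 h for 32.7%. The share of all genes with both was not counted. At 12 h Efnb2 lay above its 0 h interval, Epha2 lay below it, and Epha4 and Epha7 overlapped theirs. The 250 bases before an annotated start of Efnb2, Epha4, Epha7 and Epha2 are shown because these genes were all highest at 4 h. They are RefSeq sequences of GRCm38.p6, written 5′ to 3′ on the gene's strand. TGACG, the core of a cAMP response element, is in capitals on either strand. They lie at chr8:8661243-8661492 (minus strand) for Efnb2, chr1:77515089-77515338 (minus) for Epha4, chr4:28812881-28813130 (plus, the first of 2 annotated starts) for Epha7 and chr4:141300971-141301220 (plus) for Epha2. The genes span chr8:8617235-8661242, chr1:77367182-77515107, chr4:28813066-28967503 and chr4:141301221-141329384, in the same order. The starts used for Epha4 and Epha7 lie inside these spans, so their windows run partly into the gene.
Efnb2: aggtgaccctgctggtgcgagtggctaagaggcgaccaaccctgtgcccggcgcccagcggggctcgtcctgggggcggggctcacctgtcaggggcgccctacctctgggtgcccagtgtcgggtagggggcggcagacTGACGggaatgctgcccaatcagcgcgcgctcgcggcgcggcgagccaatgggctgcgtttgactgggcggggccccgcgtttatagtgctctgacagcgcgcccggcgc
Epha4: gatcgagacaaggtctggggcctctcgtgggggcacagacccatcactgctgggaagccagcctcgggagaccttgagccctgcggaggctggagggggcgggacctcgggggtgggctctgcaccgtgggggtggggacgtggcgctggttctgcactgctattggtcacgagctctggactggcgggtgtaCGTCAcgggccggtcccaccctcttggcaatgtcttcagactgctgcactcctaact
Epha7: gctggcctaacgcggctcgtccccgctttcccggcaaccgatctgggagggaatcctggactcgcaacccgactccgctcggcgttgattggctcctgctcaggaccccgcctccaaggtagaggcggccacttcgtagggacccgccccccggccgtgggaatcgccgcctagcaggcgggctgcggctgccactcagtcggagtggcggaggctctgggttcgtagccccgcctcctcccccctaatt
Epha2: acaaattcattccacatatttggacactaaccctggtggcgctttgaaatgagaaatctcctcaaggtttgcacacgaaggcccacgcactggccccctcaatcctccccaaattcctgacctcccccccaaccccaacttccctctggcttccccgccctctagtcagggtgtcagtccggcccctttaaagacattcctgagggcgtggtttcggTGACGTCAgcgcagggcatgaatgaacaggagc

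The window of Epha2 held the full element TGACGTCA, which overlaps 2 TGACG cores, beginning 33 bases before the start; 1.55% of 32851 windows of this length hold it. A core began 110 bases before the start of Efnb2 and 57 before that of Epha4. The windows of Epha7 held none, while those of Efnb1 and Ephb3, whose bounds overlapped between times, held 1 each; 17.8% of all windows hold a core. The AP-1 motif TGANTCA was in no window of the 10 genes, against 6.75% of all windows, and GGGCGG, a GC box, was in the windows of 8 of them, against 32.7%. All were searched on both strands in these 250 bases only. The windows of Ephb2 and Ephb3 and 1 window of Efna1 also lie partly or wholly inside the span of their gene.

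Among the ligands, Efnb2 differed most between times. Efnb2 is the transmembrane ligand known from arterial endothelium, and Ephb4 is its main receptor. Efnb2 was at 1.75 FPKM (bounds 1.18 to 2.32) at 0 h, 36.3 FPKM (33.8 to 38.7) at 4 h and 3.17 FPKM (2.38 to 3.96) at 12 h, which correspond to about 107, 1982 and 169 fragments. The 4 h library stood far above both others, and the bounds at 4 h and 0 h were 14.6-fold apart at their nearest. The log2 fold of FPKM + 1 was 3.76 for 4 h over 0 h and -3.16 for 12 h over 4 h. At 12 h the level was 1.81 times that at 0 h, with bounds that did not overlap (nearest ratio 1.03) and a log2 fold of 0.60 that was not called.

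Efnb1, the X-linked B ephrin, was at 15.7 FPKM (13.2 to 18.1) at 0 h, 14.4 FPKM (12.1 to 16.7) at 4 h and 14.4 FPKM (11.9 to 16.9) at 12 h. Its 3 intervals overlapped throughout. The order of the B ephrins therefore turned at 4 h: Efnb1 made up 75.0%, 26.8% and 70.6% of the summed B ephrin FPKM at 0, 4 and 12 h, and Efnb2 67.6% of it at 4 h.

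Efna1 and Efna5 each have 2 isoforms in the file, and their summed intervals were wide at 0 h and 4 h. Efna5, a lipid-anchored ligand, was at 24.2 FPKM (12.7 to 35.8) at 0 h, 16.6 FPKM (5.79 to 30.6) at 4 h and 11.4 FPKM (9.65 to 13.1) at 12 h. Values declined over the 3 libraries, but the summed bounds of every pair of times overlapped. The 12 h library was called lower than the 0 h library, with a log2 fold of -1.03, just past the threshold; after scaling to equal summed FPKM it was -0.95, just short of it. Efna1, a ligand of EphA2, was at 10.3 FPKM (1.58 to 19.4), 9.24 FPKM (2.77 to 17.1) and 16.4 FPKM (12.6 to 20.5) at 0, 4 and 12 h. It was called in no comparison on the deposited scale, and its log2 fold for 12 h over 4 h was 0.76, or 1.12 and called higher after scaling to equal summed FPKM.

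**Figure D1:**
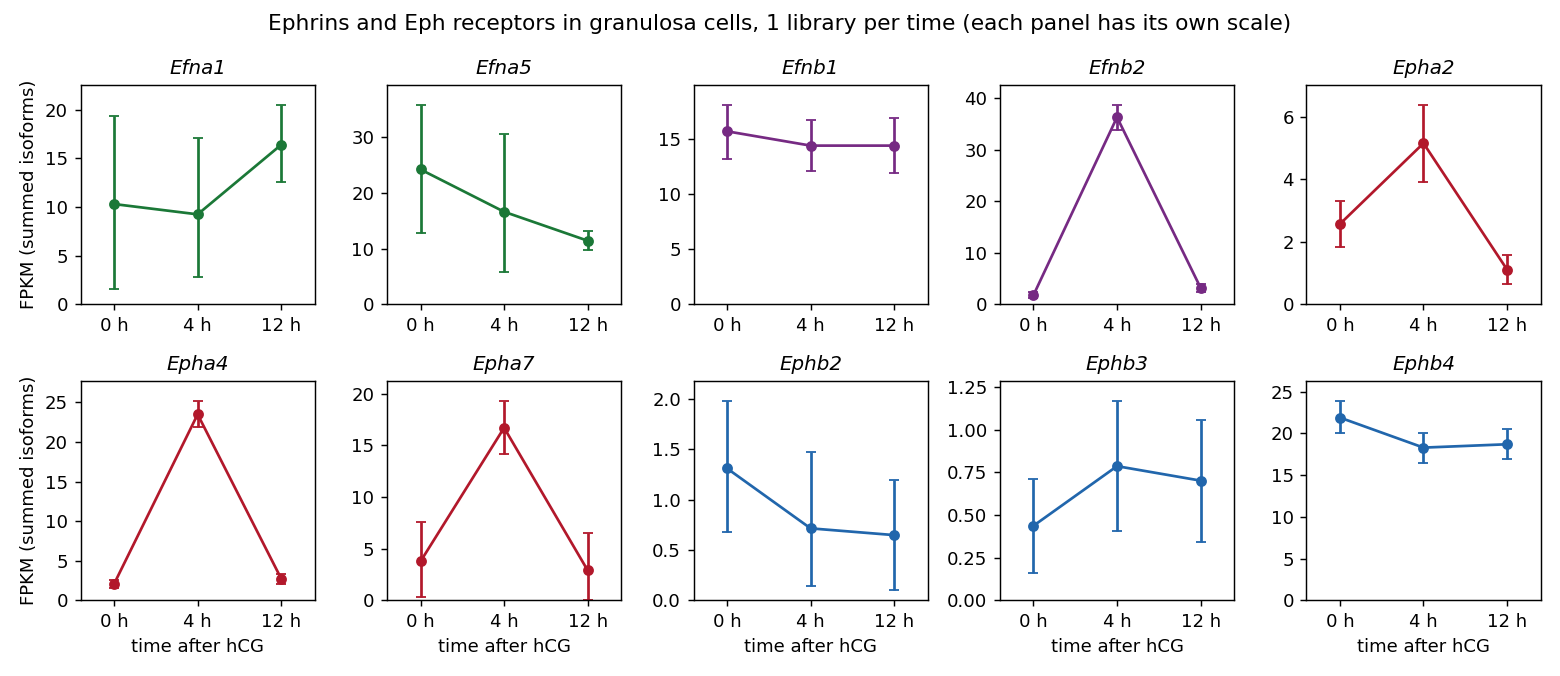
FPKM of the 10 genes at 0, 4 and 12 h after hCG, 1 library per time; points are summed isoform FPKM, bars run between the summed deposited bounds, and each panel has its own scale. The 4 h bars of Efnb2, Epha4, Epha7 and Epha2 lie above those at both other times, while the bars of Efnb1 overlap at all times.

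Of the receptors, Epha4 and Epha7 were called higher at 4 h than at 0 h. Epha4, the receptor that accepts ligands of both classes, was at 2.06 FPKM (1.53 to 2.58) at 0 h, 23.5 FPKM (21.9 to 25.2) at 4 h and 2.72 FPKM (2.07 to 3.37) at 12 h, or about 168, 1715 and 193 fragments. The intervals at 12 h and 0 h overlapped, and that at 4 h lay 8.47-fold above the 0 h interval at the nearest bounds. Its log2 folds were 3.0 for 4 h over 0 h and -2.72 for 12 h over 4 h.

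Epha7 is a receptor known in the mouse in full-length forms and in forms without the kinase domain. It was at 3.76 FPKM (0.324 to 7.54) at 0 h, 16.7 FPKM (14.2 to 19.3) at 4 h and 2.89 FPKM (0.0403 to 6.53) at 12 h. Its log2 folds were 1.90 for 4 h over 0 h and -2.19 for 12 h over 4 h, and the bounds at 4 h lay 1.88-fold above those at 0 h at the nearest. The 12 h and 0 h intervals overlapped.

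Epha2, the main receptor of ephrin-A1, was at 2.57 FPKM (1.84 to 3.30) at 0 h, 5.16 FPKM (3.93 to 6.39) at 4 h and 1.11 FPKM (0.642 to 1.57) at 12 h, or about 127, 228 and 48 fragments. All 3 intervals were apart, the lowest being that at 12 h. The plain ratio of 4 h over 0 h was 2.01, but the log2 fold of FPKM + 1 was 0.79 and was not called; for 12 h over 4 h it was -1.55 and was called lower. Epha2 was also at 0.431 times its 0 h level at 12 h, with a log2 fold of -0.76 that was not called.

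No listed EphB receptor was called in any comparison. Ephb4, known from venous endothelium, was at 21.9 FPKM (20 to 23.9) at 0 h, 18.3 FPKM (16.5 to 20.1) at 4 h and 18.7 FPKM (16.9 to 20.5) at 12 h. Its 3 intervals overlapped, with a log2 fold of -0.25 for 4 h over 0 h. After scaling to equal summed FPKM that fold was -0.54, outside the range its bounds allow, and still not called. Ephb2, a receptor of B ephrins that also binds ephrin-A5, was at 1.31 FPKM (0.676 to 1.98), 0.714 FPKM (0.138 to 1.47) and 0.647 FPKM (0.104 to 1.19) at 0, 4 and 12 h. Ephb3, another B ephrin receptor, was at 0.437 FPKM (0.162 to 0.711), 0.787 FPKM (0.407 to 1.17) and 0.702 FPKM (0.341 to 1.06), or about 23, 37 and 32 fragments, and was below 1 FPKM in each library. At this depth a difference of Ephb2 or Ephb3 between times was not detectable, since the intervals overlapped.

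By the 2-fold rule 3 of the 9 listed genes with at least 1 FPKM in either library (Efnb2, Epha4 and Epha7) were higher in the 4 h library and 0 lower, against 10.2% and 7.03% of 13240 genes; their median log2 fold was -0.12, that of all genes -0.01. Intervals were apart for 4 genes, the same 3 and Epha2, against 37.3% of all genes. For 12 h over 4 h, 0 of 8 were higher and 4 were lower (Efnb2, Epha2, Epha4 and Epha7), against 4.83% and 7.88% of 13242 genes, with medians of -1.03 and 0.01; intervals were apart for these 4, against 32.7%. For 12 h over 0 h, 0 of 9 were higher and 1, Efna5, was lower, against 3.16% and 2.55% of 13026 genes, with medians of -0.22 and -0.02; a call in either direction was made for 5.7% of all genes. Intervals at 12 h and 0 h were apart for 2 listed genes, Efnb2 and Epha2, against 16.1% of all genes. Of all genes called, 59.3% were higher for 4 h over 0 h and 38.0% for 12 h over 4 h, against 36.7% and 70.7% after scaling to equal summed FPKM. Counting genes higher at 4 h than at 0 h and also lower at 12 h than at 4 h gave 3 of the 9 listed genes that reached 1 FPKM in a library. Among all genes it gave 6.41% of the 13500 that reached this level. The 4 h library enters 2 of the 3 comparisons, so those comparisons are not independent of each other. With so few genes these shares describe the list, and no test was made of it.

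The order of levels, read per length, changed with time. At 0 h Efna5, Ephb4, Efnb1 and Efna1 led, and the intervals of Efna5 and Ephb4 overlapped, as did those of each pair of neighbours from Efnb1 down to Ephb3. At 4 h Efnb2 was first and Epha4 next, each with an interval apart from its lower neighbour; Ephb4, Epha7, Efna5, Efnb1, Efna1 and Epha2 followed with intervals that overlapped between neighbours, and Epha2 was apart from Ephb3 below it. At 12 h Ephb4, Efna1, Efnb1 and Efna5 led with overlapping neighbours, Efna5 was apart from Efnb2 below it, and Epha4 was apart from Epha2.

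Of the 5 listed genes with several isoforms, Efna1, Efna5 and Epha7 each had a form whose interval at 1 time was apart from that at another. Efna5 has a form with a cassette exon of 81 coding bases (NM_207654) and a form without it (NM_010109). The exon lies at chr17:62613316-62613396 on the minus strand of GRCm38 and is shown because the 2 forms differ by it.
Efna5 exon: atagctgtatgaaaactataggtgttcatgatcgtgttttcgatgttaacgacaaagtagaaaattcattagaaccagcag
The form with the exon was at 6.55 FPKM (0.882 to 12.2) at 0 h, 12.8 FPKM (5.79 to 19.8) at 4 h and 0.00123 FPKM (0.0 to 0.0658) at 12 h. The form without it was at 17.7 FPKM (11.8 to 23.6), 3.80 FPKM (0.0 to 10.8) and 11.4 FPKM (9.65 to 13.1). The shorter form thus held 73.0%, 22.9% and 100% of the gene's FPKM at 0, 4 and 12 h. Its intervals at 4 h and 0 h did not overlap, whereas those of the longer form at these times did.

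Epha7 has 3 forms in the file. NM_010141 and NM_001290434 code for the whole receptor in 2994 and 2982 bases, and NM_001122889 ends after 1830 coding bases. The exon at chr4:28947528-28947653 (plus strand, GRCm38) begins with 12 bases, in capitals, that NM_001290434 lacks; the truncated form ends in 32 coding bases of its own at chr4:28946219-28946250.
Epha7 exon: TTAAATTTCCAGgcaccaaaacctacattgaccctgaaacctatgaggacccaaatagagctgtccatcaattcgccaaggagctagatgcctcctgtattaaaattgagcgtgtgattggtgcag
Epha7 truncated end: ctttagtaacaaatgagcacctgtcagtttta
The form with the 12 bases was at 2.06 FPKM (0.324 to 3.79) at 0 h, 13.8 FPKM (12.5 to 15.2) at 4 h and 0.791 FPKM (0.0 to 2.32) at 12 h, and held 54.8%, 82.7% and 27.3% of the gene. The form without them was at 1.42 FPKM (0.0 to 2.95), 2.19 FPKM (1.45 to 2.93) and 1.60 FPKM (0.0 to 3.23), with overlapping intervals. The truncated form was at 0.277 FPKM (0.0 to 0.798), 0.711 FPKM (0.189 to 1.23) and 0.503 FPKM (0.0403 to 0.966), again with overlapping intervals. Of the 3 forms the one with the 12 bases had its 4 h interval apart from those at the other times.

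Efna1 has 2 forms with separate starts. NM_010107, with 615 coding bases, was at 6.17 FPKM (1.58 to 10.8), 6.79 FPKM (2.77 to 10.8) and 16.4 FPKM (12.6 to 20.2) at 0, 4 and 12 h. NM_001162425, with 426 coding bases, was at 4.14 FPKM (0.0 to 8.68), 2.45 FPKM (0.0 to 6.25) and 0.0007 FPKM (0.0 to 0.263). NM_010107 held 59.8%, 73.5% and 100% of the gene, and its 12 h interval lay above those of the earlier times, while the summed intervals of the gene overlapped. Ephb4 was nearly all NM_010144 (99.9% to 100%), and Ephb2 mostly NM_010142 (86.2%, 75.4% and 59.7%) at 1.13 FPKM or less. The split between isoforms was made by the authors' software, and its share of these differences was not tested.

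**Figure D2:**
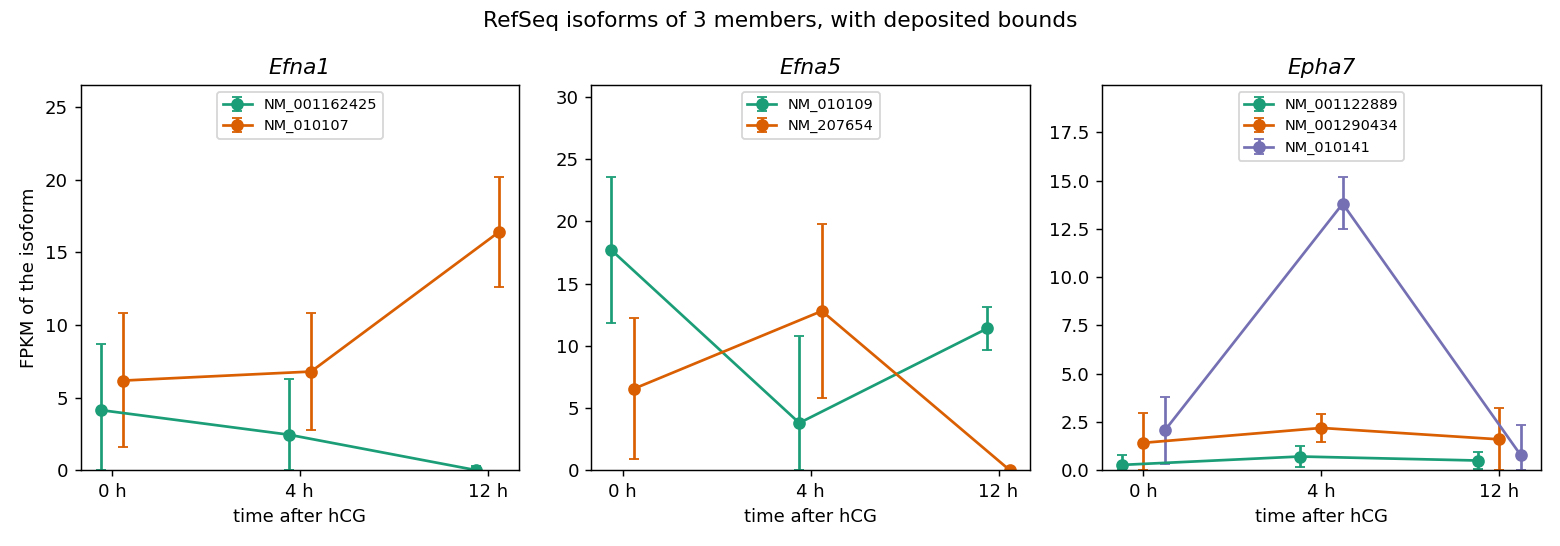
FPKM of each RefSeq isoform of Efna1, Efna5 and Epha7 at 0, 4 and 12 h after hCG, with bars between the deposited bounds; points of one time are shifted sideways for legibility. NM_010141 of Epha7 reaches 13.8 FPKM at 4 h, and in Efna5 the form without the cassette exon is the lower one only at 4 h.

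The other 12 ephrin and Eph genes placed the listed ones within the family. Of 7 with at least 1 FPKM at 4 h or 0 h, 1 was higher at 4 h and 0 were lower (median log2 fold 0.43); 1 of 7 was lower at 12 h than at 4 h (median -0.35) and 1 of 6 lower at 12 h than at 0 h (median 0.06), all the same gene, against 10.2%, 7.88% and 2.55% of all genes. That gene was Epha5, a receptor of A ephrins, at 2.19 FPKM (1.66 to 2.71), 7.08 FPKM (6.00 to 8.16) and 0.376 FPKM (0.188 to 0.563) at 0, 4 and 12 h. It too was highest at 4 h, and at 12 h it was lower than at 0 h by a log2 fold of -1.21 with intervals apart. Epha3 and Epha1, also EphA receptors, were at 0.579, 1.70 and 0.525 FPKM and at 0.700, 1.84 and 1.23 FPKM at the 3 times and were not called. The 4 h interval of Epha3 (1.12 to 2.28) was apart from those at 0 h (0.244 to 0.914) and 12 h (0.213 to 0.837). For 4 h over 0 h, Epha3 and Epha1 reached 1 FPKM only at 4 h, so the filter let them into the median of 0.43 through their higher library. For 12 h over 4 h, Epha3 and Epha5 likewise entered through 4 h alone.

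The remaining ligands Efna4 (7.65, 10.7 and 7.97 FPKM), Efna2 (4.12, 3.70 and 4.37 FPKM) and Efnb3 (3.48, 3.0 and 2.82 FPKM) had overlapping intervals at the 3 times. Ephb6, which lacks an active kinase, was at 15.3, 16.2 and 17.3 FPKM, but with a lower bound of 0.0 each time for both of its isoforms. Efna3, Epha8, Epha10 and Ephb1 stayed below 0.5 FPKM in each library. Epha6 was listed at 0 at 0 h and 4 h and at 0.0651 FPKM at 12 h.

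Sums were taken by class over the whole family of 22 genes, and a few genes carry each sum. The 9 EphA receptors came to 12.3, 56.5 and 9.13 FPKM at 0, 4 and 12 h, and the 3 B ephrins to 20.9, 53.6 and 20.4 FPKM. The 5 A ephrins came to 46.5, 40.4 and 40.4 FPKM and the 5 EphB receptors to 39.1, 36.5 and 37.5 FPKM. The 4 h library was thus the highest in EphA and B ephrin sums and not in the other classes. Within the B ephrins Efnb2 alone had its highest value at 4 h, and Efnb1 and Efnb3 were lower in value at 4 h than at 0 h. After scaling to equal summed FPKM, EphA receptors were at 13.0, 48.3 and 10.3 FPKM, B ephrins at 22.2, 45.9 and 23.0, A ephrins at 49.3, 34.6 and 45.5, and EphB receptors at 41.5, 31.3 and 42.2. Among EphA receptors Epha4 held 41.7% and Epha7 29.7% of the sum at 4 h; Ephb4 and Ephb6 together made up most of the EphB sum at each time.

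**Figure D3:**
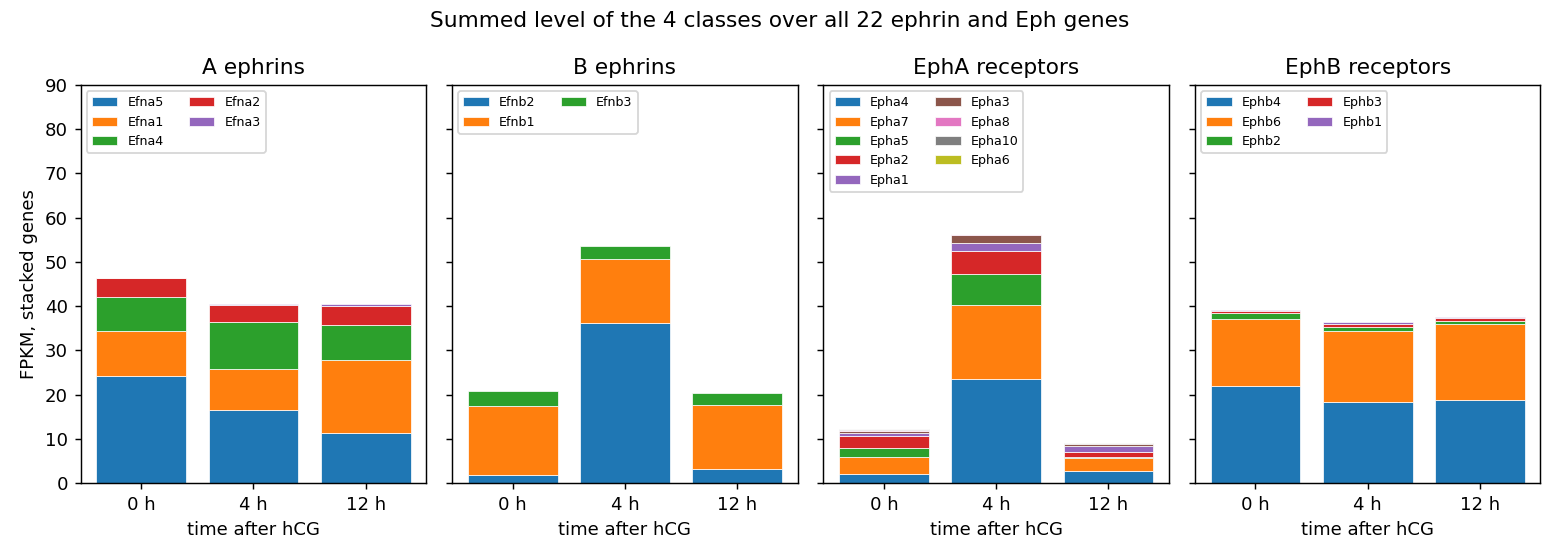
Stacked FPKM of all 22 ephrin and Eph genes in 4 classes at 0, 4 and 12 h after hCG, 1 library per time, on a common linear axis from 0. B ephrins and EphA receptors stand at 53.6 and 56.5 FPKM at 4 h, while A ephrins and EphB receptors stay between 36.5 and 46.5 FPKM.

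Proteins that act next to Eph receptors were described from a list of 26 adaptors, kinases and other signalling proteins. Of 22 with at least 1 FPKM at 4 h or 0 h, 2 were higher at 4 h and 0 lower (median log2 fold 0.31), against 10.2% and 7.03% of all genes. These were the Src family kinase Yes1, at 18.5, 74.0 and 17.2 FPKM at 0, 4 and 12 h, and the adaptor Grb10, at 4.41, 11.6 and 8.25 FPKM. Yes1 was the sole member lower at 12 h than at 4 h (1 of 22, median -0.32, against 7.88% of all genes), and 0 of 21 were called for 12 h over 0 h. After scaling to equal summed FPKM Grb10 was not called and the median for 4 h over 0 h was 0.02.

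Of 11 proteins known to bind the tail of B ephrins, 10 had at least 1 FPKM at 4 h or 0 h; 2 were higher at 4 h and 1 lower (median -0.16), against 10.2% and 7.03% of all genes. The PDZ protein syntenin, Sdcbp, was at 51.7, 158 and 64.8 FPKM at 0, 4 and 12 h, and Stat3 at 16.8, 43.9 and 25.2 FPKM. Rgs3, the regulator of G-protein signalling that binds the B ephrin tail, was at 26.1, 6.82 and 21.9 FPKM and so lowest at 4 h. For 12 h over 4 h, Rgs3 was called higher and Sdcbp lower (median -0.05 over 9 genes, against 4.83% and 7.88% of all genes), and 0 of 10 were called for 12 h over 0 h; after scaling to equal summed FPKM Pick1 (26.2, 13.2 and 17.8 FPKM) was also lower at 4 h and Sdcbp was not called at 12 h. None of 9 phosphatases, Cbl and shedding proteases was called in any comparison, with medians between -0.16 and 0.07 on the deposited scale; 17.3%, 12.7% and 5.7% of all genes were called for 4 h over 0 h, 12 h over 4 h and 12 h over 0 h.

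Endothelial cells express Efnb2 and Ephb4, so markers of other cells were read beside the family. All 8 endothelial markers had higher values at 4 h than at 0 h and lower values at 12 h than at 4 h. Of these, Vwf stayed below 1 FPKM at each time and Tek reached it only at 4 h. The share of all genes with values in these directions was not counted. The summed level of the 8 markers was 17.4, 41.5 and 15.8 FPKM at 0, 4 and 12 h, and none was at 0. Of 7 with at least 1 FPKM, 2 were called higher at 4 h, against 10.2% of all genes. These were Kdr (1.54, 7.92 and 1.24 FPKM) and Emcn (2.77, 8.0 and 2.75 FPKM). After scaling to equal summed FPKM 1, Kdr, was called, against 1000 of 13163 genes. For 12 h over 4 h, 4 of 7 were called lower (Kdr, Tie1, Emcn and Cldn5, median log2 fold -1.12), against 7.88% of all genes. After scaling 2 were called lower (Kdr and Tie1), against 693 of 13253 genes. Tie1 and Tek reached 1 FPKM at 4 h and not at 12 h, so they entered this comparison through their higher library. The endothelial sum at 4 h was 2.38 times that at 0 h. Fewer cells of a type and less RNA per cell cannot be told apart in these bulk libraries, and the part of endothelial RNA in the family's values was not tested.

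Markers of other cells differed as well. The 6 surface epithelium markers summed to 53.6, 133 and 77.3 FPKM at 0, 4 and 12 h. Of these 4 were called higher at 4 h than at 0 h, against 10.2% of all genes. After scaling to equal summed FPKM 2 were, against 1000 of 13163 genes. For 12 h over 4 h, 1, Krt7, was called lower, against 7.88% of all genes. After scaling 0 were, against 693 of 13253 genes. The 6 leukocyte markers summed to 10.5, 29.7 and 18.4 FPKM; Cd68 alone was at 5.39, 22.7 and 12.5 FPKM, 3 of 6 were higher in value at 4 h than at 0 h, and Cd3e was at 0 at 4 h and 12 h. Smooth muscle and pericyte markers summed to 115, 175 and 170 FPKM, theca and stroma markers to 214, 246 and 210 FPKM, and oocyte markers to 175, 145 and 246 FPKM. After scaling, 5 of 6 oocyte markers were called higher at 12 h than at 4 h, against 0 as deposited, and so were 1670 of 13253 genes in all. With the same scaling the smooth muscle gene Tagln lost its call as higher at 4 h. The theca and stroma list gained Insl3 as lower at 4 h and Lum as higher at 12 h than at 4 h. The 7 granulosa markers were present at each time and summed to 8130, 7850 and 4700 FPKM, of which Inha alone gave 6990, 7160 and 3740 FPKM. At 4 h 5 of the 7 were lower in value than at 0 h (median log2 fold -0.88), and 3 were called lower, against 7.03% of all genes. These were Foxl2 (149, 44.3 and 102 FPKM), Fshr (133, 15.5 and 32.1 FPKM) and Cyp19a1 (198, 30.0 and 105 FPKM). After scaling 4 were called lower, against 1728 of 13163 genes. For 12 h over 4 h, Foxl2, Fshr and Cyp19a1 were called higher on both scales, against 4.83% of all genes as deposited. Where markers were counted by direction of value alone, the share of all genes was not counted. The part of these cells in the family's values was not tested.

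**Figure D4:**
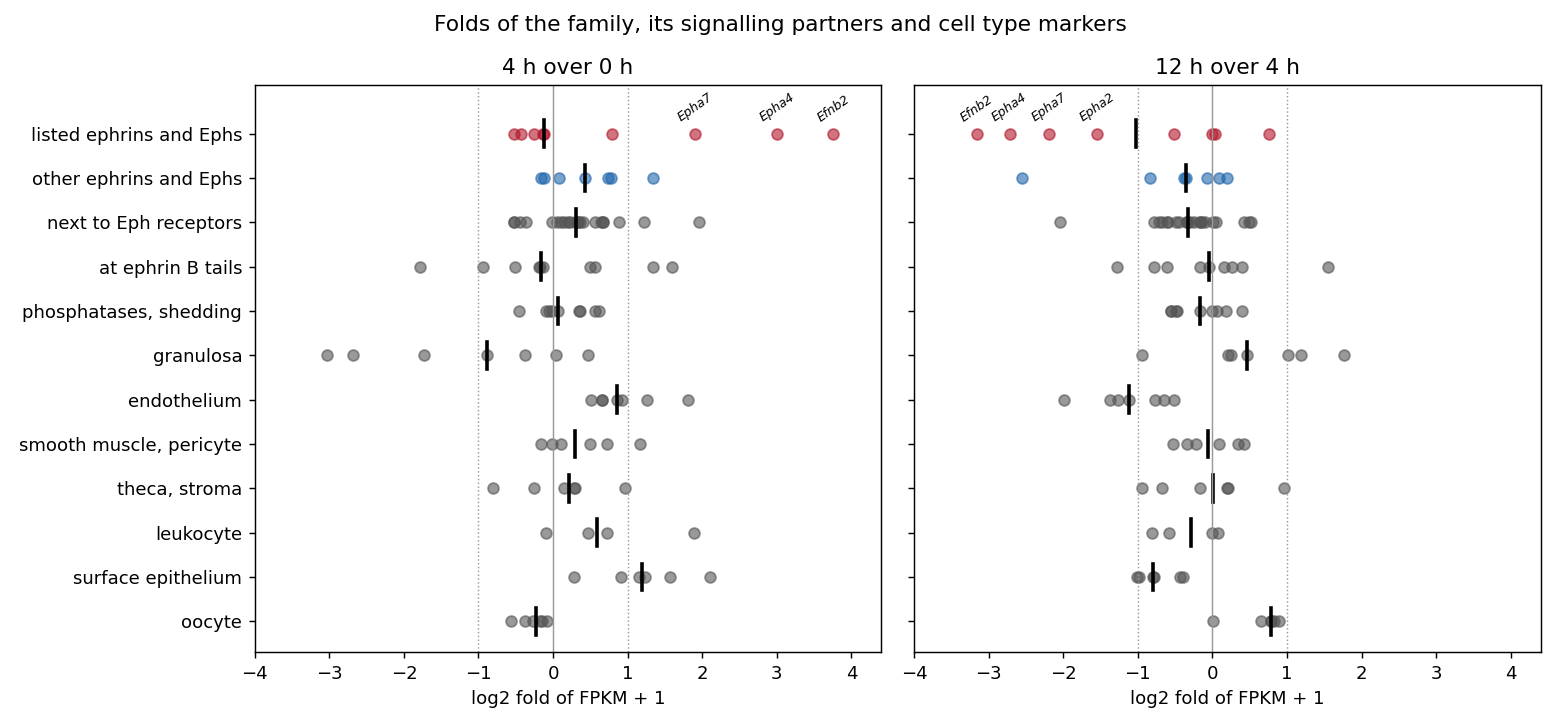
Log2 folds of FPKM + 1 for 4 h over 0 h (left) and 12 h over 4 h (right), 1 point per gene that reached 1 FPKM in either library; black bars are medians and dotted lines mark 2-fold. On the left Efnb2 is at 3.76, Epha4 at 3.0 and Epha7 at 1.90. The highest marker folds there are those of Krt18 (surface epithelium, 2.11), Cd68 (leukocyte, 1.89) and Kdr (endothelium, 1.81), while 3 granulosa markers lie beyond the lower 2-fold line. On the right 4 of 8 listed genes and 4 of 7 endothelial markers lie at or beyond the lower 2-fold line, against 7.88% of all genes.

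The genes whose 3 values were most like those of each called gene were found by the Euclidean distance between mean-centred log2(FPKM + 1) values over the 3 libraries, among 9964 genes. Nearest to Efnb2 were Hs3st1 (38.0, 512 and 55.4 FPKM at 0, 4 and 12 h; distance 0.049), Ncoa7 (9.97, 139 and 15.7) and Zfp365 (0.814, 25.2 and 1.74), and 40 genes lay within a distance of 0.5. Nearest to Epha4 were Hey1 (1.95, 23.6 and 2.66 FPKM; distance 0.040), Mgst1 (351, 2730 and 434) and Flrt3 (3.23, 30.9 and 4.39), with 89 genes within 0.5. Chosen for this likeness, these 6 genes had, like Efnb2 and Epha4, their highest value at 4 h and their lowest at 0 h.

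Nearest to Epha7 were Pxdc1 (1.85, 8.98 and 1.19 FPKM; distance 0.074), Fetub (37.8, 132 and 29.3) and Pla2g4a (28.3, 97.2 and 21.7). Epha2 was nearest to Rian (54.7, 107 and 35.9 FPKM; distance 0.137), Acsl3 (20.4, 37.5 and 13.5) and Pparg (96.5, 145 and 51.8). For Efna5, whose values declined, they were Kdelr3 (36.3, 25.1 and 17.8 FPKM; distance 0.031), Ccnd1 (8.73, 5.92 and 3.72) and Lrrn2 (16.2, 11 and 7.71), with 501 genes within 0.5. With 3 points per gene such likeness is a description of these libraries.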

How the data were processed

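Granulosa cells at 0, 4 and 12 h after hCG were each represented by 1 library. The authors deposited FPKM of 34535 RefSeq isoforms per library with lower and upper bounds, the upper one lying 2 deposited standard deviations above the estimate, per the file headers and values. Per the submitters' processing notes, CASAVA 1.8, TopHat2 2.1.1, Cufflinks 2.2.1 and the build mm10 were used, with no role stated; strandedness and pooling of the 3 mice are not given in the sources used here. None of the 12 estimates marked as failed belonged to an ephrin or Eph gene.

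Isoforms were matched to symbols of GRCm38.p6 (34169) or GENCODE M21 (193); 173 were left out. Isoform FPKM and bounds were summed to 24225 genes; the 10 listed genes had 16 isoforms. Lengths of single-isoform genes gave the depth: after an allowance of 200 to 220 bases, 70.0% to 71.7% of values under 10 fragments lay within 0.1 of a whole number, against 20% by chance. Fragment numbers are approximate and are given for genes with 1 isoform. Annotated lncRNA genes overlap Efna5 and Ephb2 and a microRNA gene overlaps Epha4; without known strand their reads cannot be told apart.

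Differences were log2(FPKM + 1) folds, described without a test (Python 3.11.15, pandas 2.3.3). The calling rule was also run on simulated libraries, with folds placed only on genes of at least 5 FPKM at 0 h. These held no isoform split and no variation between animals. They therefore do not bear on calls of genes below that level or of isoform sums. Members, lists, rules and alternatives were chosen with earlier results of these data known. Named genes were all ephrins and Ephs, called genes of the signalling lists (up to 4 per comparison), and the 3 nearest profiles of each called gene among named genes with at least 5 FPKM in a library; cell type markers were fixed as lists, and those named singly, like Pick1, were chosen after their values were seen.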

Additional observations from a re-analysis of the deposited data

How the results depend on the processing

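With 1 library per time, differences carry no spread between mice. There were no replicates to pair, and the replicate number the groups share comes from accession order only. Efnb2, Epha4 and Epha7 were called at 4 h over 0 h, and lower at 12 h than at 4 h, under each alternative, except that Epha7 was not called at 4 h over 0 h with a 4-fold threshold. Epha2 was not called lower at 12 h than at 4 h with a pseudocount of 5 FPKM (log2 fold -0.73) or a 4-fold threshold, leaving 3 genes in place of 4, and was called higher at 4 h over 0 h at 1.5-fold, making 4 genes in place of 3. Taking the main isoform alone made 1 gene, Efna5, lower at 4 h than at 0 h. For 12 h over 4 h, the number higher, 0 as reported, was 1 after scaling to equal summed FPKM, against 1670 of 13253 genes. It was 2 with the main isoform (Efna1 and Efna5), against 874 of 13165, and 1 at 1.5-fold, against 2141 of 13242. For 12 h over 0 h, the number lower, 1 as reported, was 2 with a pseudocount of 0.1 FPKM or at 1.5-fold, against 523 and 873 of 13026 genes. It was 0 with a pseudocount of 5 FPKM, scaling to equal summed FPKM, the main isoform, a 4-fold threshold or summed bounds required to lie apart. The number higher was 1 with the main isoform, against 585 of 12941 genes, and 2 at 1.5-fold, against 1145 of 13026. The cause of these shifts was not tested. Root-summed bounds added Efna5 to the genes with bounds apart at 12 h over 0 h (3 in place of 2). Of 150 member folds recomputed, 139 stayed within the interval their bounds allow, and 11 moved outside it. The sign turned in 4, none a fold called in its comparison: by the main isoform, Efna5 at 12 h over 4 h (-0.51 to 1.36) and Efna1 at 4 h over 0 h (-0.14 to 0.12), and after scaling to equal summed FPKM, Ephb2 (-0.06 to 0.10) and Ephb3 (-0.07 to 0.10) at 12 h over 4 h. Over all genes, 1356 higher and 931 lower for 4 h over 0 h became 781 and 345 with a pseudocount of 5 FPKM and 1000 and 1728 after scaling to equal summed FPKM; 639 and 1043 for 12 h over 4 h became 155 and 618, and 1670 and 693.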

Other observations

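Other families of contact and guidance cues were read by the same rule, a choice made after the ephrin values were seen. Of 49 semaphorin, plexin, neuropilin, Slit, Robo, netrin and UNC5 or DCC genes, 39 had at least 1 FPKM at 4 h or 0 h. Of these 12 were higher at 4 h and 2 were lower, against 10.2% and 7.03% of all genes. Among the higher ones Sema3e, Sema4f and Slit2 were below 1 FPKM at 0 h, so the filter let them in through their higher library. These calls were not repeated after scaling to equal summed FPKM. The secreted semaphorins Sema3a (1.04, 8.59 and 0.678 FPKM at 0, 4 and 12 h) and Sema3c (40.8, 126 and 25.1 FPKM) and the Robo receptor gene Robo2 (11.7, 92.3 and 5.16 FPKM) were highest at 4 h, as was the Robo ligand Slit2 (0.827, 4.88 and 1.26 FPKM). Sema7a, a lipid-anchored semaphorin, was at 174, 38.8 and 119 FPKM and its receptor Plxnc1 at 117, 27.4 and 34.8 FPKM, so that both members of this pair were lower at 4 h than at 0 h. At 12 h over 4 h, 1 of 40 genes was higher (Sema7a) and 9 were lower, against 4.83% and 7.88% of all genes. Of the lower ones Sema3a, Sema3f and Sema4f were below 1 FPKM at 12 h and likewise entered through 4 h alone. Each value is from 1 library per time and no test was made.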
